A study of Drosophila melanogaster with 5 samples.

Results

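The genes described here are 5 members of the Drosophila integrated stress response: the kinases PEK and Gcn2, the transcription factors crc and Xrp1, and CG3825, a subunit of a phosphatase. They were chosen by gene name from the deposited table of annotated coding sequences (CDSs), and are 5 of its 13967 genes. Their 18 listed CDSs, of 28529, reduce to 11 with distinct coordinates, of 21870. Upstream open reading frames (uORFs, short AUG-initiated reading frames in the 5′-UTR) were added when they lay on the same strand within 10 kb upstream of a member CDS with no other CDS between. This gave 20 distinct uORFs of 14888, of which 2 belonged to PEK, 1 to Gcn2, 9 to crc, 5 to Xrp1 and 3 to CG3825. All 20 were on transcripts of their own member gene in a later annotation, BDGP6. CG3825 was found by its FlyBase identifier, under which the files list it as Gadd34.

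In the integrated stress response, kinases that sense different stresses phosphorylate the translation initiation factor eIF2, which lowers initiation on most mRNAs. PEK, the fly PERK, responds to unfolded protein in the endoplasmic reticulum and Gcn2 to shortage of amino acids. Some mRNAs escape the block because uORFs in their leaders steer scanning ribosomes towards the main CDS when active eIF2 is scarce. The best known are mRNAs of the transcription factor crc, the fly ATF4, and of phosphatase subunits such as mammalian GADD34, which direct protein phosphatase 1 to phosphorylated eIF2 and so end the response.

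The data are Poly-Ribo-Seq libraries from S2 cells, a line derived from Drosophila embryos, in which ribosome-protected fragments (footprints) are sequenced after polysomes have been separated by size. Cells were treated with cycloheximide, which stalls elongating ribosomes, and the labels name no genotype, drug or stress that differs between libraries. The groups are large polysomes (1 library), small polysomes (2 libraries, called initial and extensive), all polysomes (1 library, depleted of rRNA fragments with beads) and oligo(dT)-purified total cytoplasmic mRNA (1 deposited sample), the control for abundance. Small polysomes were separated to enrich mRNAs that carry few ribosomes, which includes those with short reading frames.

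Values are reads per kilobase of reading frame scaled to library depth (RPKM) for density, and the fraction of the reading frame covered by reads for coverage. Reads on the longest CDS of every gene came to 1890533 in large polysomes, 5834727 and 2841632 in the extensive and initial small polysome libraries, 2332829 in all polysomes and 3605839 in mRNA. Among the footprints only small polysomes had a second library, made when the experiment was repeated. The study describes replicates of the mRNA, which the single deposited mRNA column appears to pool, so that no spread between them can be given. Intervals given with densities and ratios are exact 95% intervals that cover counting error only. Of 6 markers of blood cells, to which S2 cells are likened, the mRNA of srp, Pxn and crq stood at 109, 327 and 74.6 RPKM, while Hml, Cg25C and vkg were at 0.019, 1.07 and 1.73 RPKM. The germline gene vas and the fat body gene Lsp2 were at 0, and the neuronal gene elav and the muscle gene Mhc at 1.66 and 0.298 RPKM.

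The CDSs of all 5 members carried footprints in every library. With the study's cut-offs for density, coverage and reads, 9 of the 11 distinct member CDSs counted as translated in large polysomes, where 27.3% of all distinct CDSs did. The same number, 9 of 11, passed in extensive small polysomes (39.6% of all CDSs) and in initial small polysomes (32.7%). In all polysomes 11 of 11 passed, against 43.2% of all CDSs. These shares of all CDSs include CDSs of genes with little or no mRNA in these cells. The 2 CDSs that missed the cut-offs outside all polysomes were both those of Gcn2. The member mRNAs lay between percentile 64.0 for Gcn2 and percentile 98.8 for Xrp1 among the longest CDSs of all genes.

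**Figure D1:**
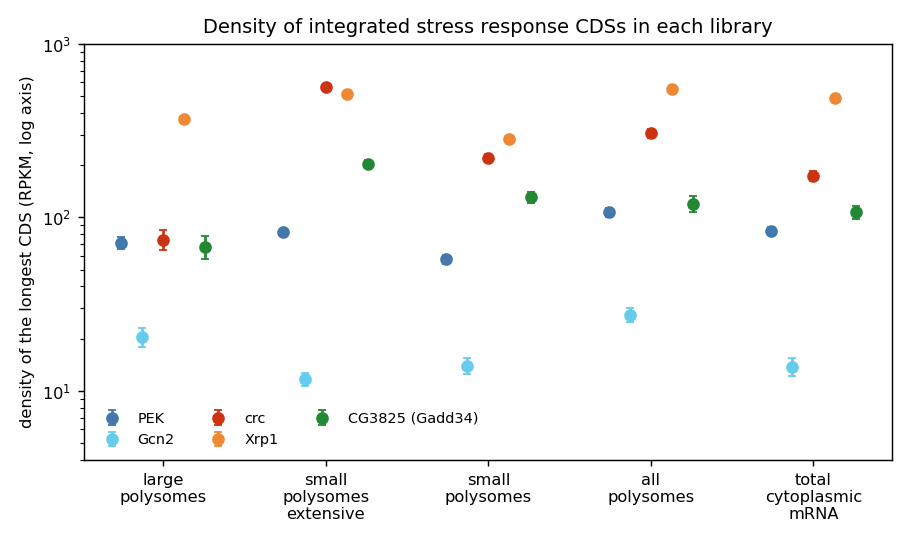
Density of the longest CDS of each member (RPKM, log axis) in the 4 footprint libraries and in total cytoplasmic mRNA, with bars for the exact 95% counting interval. Gcn2 is the lowest in every library and Xrp1 the highest in each except extensive small polysomes, where crc stands at 562 RPKM against 513 RPKM for Xrp1.

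PEK (FBgn0037327) lies on chromosome 3R, minus strand, and its longest CDS of 1162 amino acids (aa) runs from 1285114 to 1290154 over 4 exons (FlyBase Release 5, the build of all coordinates here). Its density was 71.5 RPKM in large polysomes, 82.5 and 57.3 RPKM in extensive and initial small polysomes, 107 RPKM in all polysomes, with 83.5 RPKM for the mRNA. On this scale large polysomes fell between the small polysome libraries, so that the groups overlapped. Translational efficiency (TE, the footprint density divided by the mRNA density) was 0.857 in large polysomes, 0.989 and 0.687 in extensive and initial small polysomes, and 1.28 in all polysomes (interval 1.19 to 1.39). The medians of 8473 genes were 0.852, 0.923, 0.702 and 0.977 in the same order, so PEK was between 0.978 and 1.31 times the median of each library.

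Gcn2 (FBgn0019990) lies on 3R, plus strand, from 27221713 to 27227099, with 10 exons and 1591 aa in the longest CDS. It was the least abundant member, at 20.4 RPKM in large polysomes, 11.7 and 14.0 RPKM in extensive and initial small polysomes, 27.4 RPKM in all polysomes, with 13.7 RPKM for the mRNA. These rest on 256, 510, 367, 417 and 299 reads. Large polysomes were higher than both small polysome libraries on this scale. Coverage of the CDS was 0.466 in large polysomes and 0.555 in initial small polysomes, under the coverage cut-off of 0.57, and in extensive small polysomes the density was just under the density cut-off. The TE of Gcn2 in all polysomes was 1.99 (interval 1.71 to 2.32), 2.04 times the median of all genes. That put it past a limit of 2 times the median, which 14.3% of genes passed in this library. It was the only member past the limit there, and the lower end of its interval lies within the limit. In large polysomes its TE was 1.49, and it was 0.849 and 1.02 in extensive and initial small polysomes.

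crc (FBgn0000370) lies on 2L, plus strand, and its longest CDS of 381 aa runs from 21311875 to 21319057 over 4 exons. Its density was 74.1 RPKM in large polysomes, against 562 and 219.7 RPKM in extensive and initial small polysomes. It was 307 RPKM in all polysomes, with 173 RPKM for the mRNA. Both small polysome libraries were above large polysomes, and they also differed from each other. The TE of crc was 0.429 (interval 0.369 to 0.497) in large polysomes, 0.504 times the median. In extensive small polysomes it was 3.25 (interval 3.03 to 3.49), 3.52 times the median, where 19.4% of genes were over 2 times. In initial small polysomes it was 1.27 and in all polysomes 1.77. Among all genes crc stood at percentile 27.1 in large polysomes, and at percentiles 93.9 and 77.3 in extensive and initial small polysomes.

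Xrp1 (FBgn0261113) encodes a basic leucine zipper transcription factor known in flies for its part in cell competition. Its longest CDS of 668 aa lies on 3R, plus strand, from 14746354 to 14752226, over 3 exons. It was the most abundant member as mRNA, with 368 RPKM in large polysomes, 513 and 282 RPKM in extensive and initial small polysomes, 551 RPKM in all polysomes, with 490.1 RPKM for the mRNA. In RPKM large polysomes again lay between the small polysome libraries. TE was 0.751 in large polysomes, 1.05 and 0.575 in extensive and initial small polysomes and 1.13 in all polysomes, between 0.819 and 1.15 times the library medians.

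CG3825 (FBgn0034948, Gadd34) lies on 2R, minus strand, from 19863401 to 19864414, with 2 exons and 317 aa. Its density was 67.5 RPKM in large polysomes, against 204 and 131 RPKM in extensive and initial small polysomes, with 119.9 RPKM in all polysomes, with 107 RPKM for the mRNA. Both small polysome libraries were above large polysomes. TE was 0.631 in large polysomes, 1.91 and 1.22 in extensive and initial small polysomes and 1.12 in all polysomes. The value in extensive small polysomes was 2.07 times the median, with a lower interval end of 1.72 that lies within the limit of 2 times.

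Across the 5 members and 4 footprint libraries, 3 TE values were over 2 times the library median, those of Gcn2 in all polysomes and of crc and CG3825 in extensive small polysomes. Over 2 times were 17.2% of all genes in large polysomes and 18.6% in initial small polysomes, where no member was. None of the values was under 0.5 times the median, which 27% of all genes were in large polysomes, 24.4% in extensive small polysomes, 24.9% in initial small polysomes and 16.7% in all polysomes. Of these, 2 lie near the limit. When genes under 5 RPKM in mRNA were left out of the medians, Gcn2 in all polysomes was at 1.97 times and CG3825 in extensive small polysomes at 1.98 times the median, both within the limit. crc in large polysomes was then at 0.468 times, under the lower limit, and in extensive small polysomes still over the upper one, at 3.37 times. All TE values share the one mRNA column, so an error in a gene's mRNA density would move its 4 values together.

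**Figure D2:**
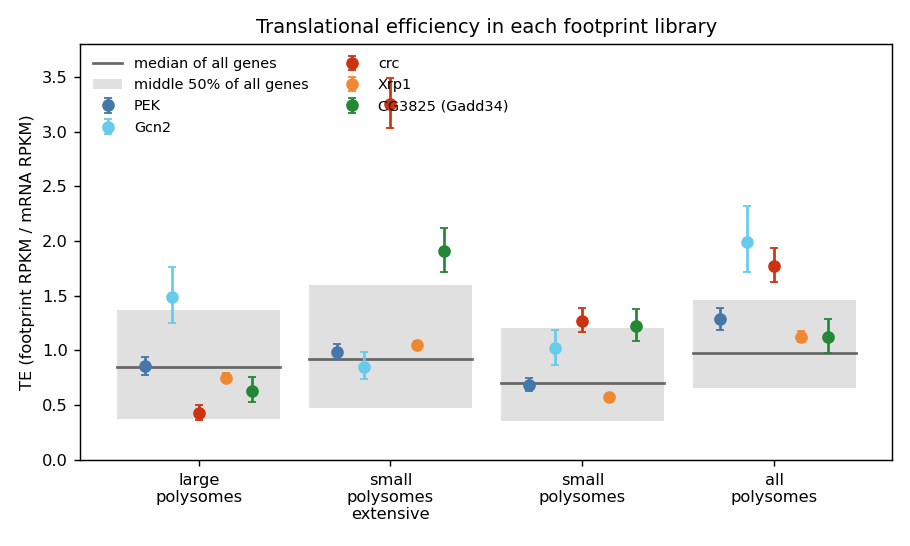
TE (footprint RPKM over mRNA RPKM, linear axis) of the 5 members in each footprint library, with exact 95% counting intervals, over the middle 50% (grey) and median (line) of 8473 genes. crc is at 0.429 in large polysomes and 3.25 in extensive small polysomes, while PEK and Xrp1 stay within the grey range in all 4 libraries.

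The comparison of large with small polysomes asks on which class of polysome each CDS was read. It was made with limma on log2(RPKM + 1), each library centred on its median, over 12263 distinct CDSs. Since there was 1 large polysome library, its spread was taken to equal that of the small ones, which left 1 residual degree of freedom beside the variance shared across CDSs. The large and the initial small library come from one experiment and the extensive library from its repeat, so that the small polysome mean, but not the large value, holds both experiments. The p-values thus rest on the difference between the small polysome libraries and mostly on the variance shared across CDSs (prior degrees of freedom 18.7). They hold no measured spread of large polysomes. Of the 5 members, crc and CG3825 were lower in large polysomes and none was higher. Among the longest CDSs of all genes 26.1% were lower and 8.1% higher, and over all 12263 distinct CDSs 20% were lower, 8.54% higher and 28.5% either. The 2 of 5 members are thus read against a change shared by many CDSs. Centring took out a median shift of 0.38 log2 units between large and small polysomes, and of 0.26 between the extensive and the initial small library.

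Centred log2 density of crc was 1.39 in large polysomes, against 4.54 and 3.46 in extensive and initial small polysomes. It was 0.164-fold in large relative to small polysomes on the log2(RPKM + 1) scale (log2 difference −2.61 ± 0.50, SE, limma adjusted p = 0.000937). The difference stood at percentile 5.44 of all longest CDSs. For CG3825 the centred values were 1.26 in large polysomes, against 3.09 and 2.71 in extensive and initial small polysomes. It was 0.320-fold in large relative to small polysomes (log2 difference −1.64 ± 0.46, SE, limma adjusted p = 0.0123), at percentile 19.4. In neither gene did the groups overlap, and 50.2% of all longest CDSs had their large polysome value below both small ones, with 37.1% above both. Both calls depend on the centring: without it the adjusted p was 0.119 for crc and 0.14 for CG3825, with the same direction, and no CDS of the 12263 passed.

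The 3 remaining members did not pass the test. Xrp1 had a log2 difference of −0.43 ± 0.47 (SE, limma adjusted p = 0.506), PEK of −0.33 ± 0.46 (adjusted p = 0.610, with +0.0550 when not centred) and Gcn2 of +0.26 ± 0.47 (adjusted p = 0.701). Without the filter on low values the differences of Xrp1 and PEK were +0.0098 and +0.11, so that no direction is given for them. In the main setting their centred values, unlike their RPKM, were lower in large polysomes than in both small polysome libraries. For PEK they were 1.34 in large polysomes, against 1.79 and 1.54 in extensive and initial small polysomes. For Xrp1 they were 3.68, against 4.41 and 3.81. The centred values of Gcn2 were −0.42 in large polysomes, against −0.93 and −0.43 in extensive and initial small polysomes, so that after centring large and initial small polysomes were nearly equal.

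CDS length moved with this difference across all genes. Among 1011 longest CDSs of 300 to 400 aa, the range that holds crc and CG3825, the median log2 difference between large and small polysomes was −0.49 while 26.1% were lower in large polysomes and 4.06% higher. Within this range crc was at percentile 2.32 and CG3825 at percentile 15.8. Among 531 CDSs of 600 to 700 aa the median was +0.24 (5.84% lower, 13.2% higher), with Xrp1 at percentile 27.4. Among 1058 CDSs of 1000 aa or more it was +0.63 (1.42% lower, 16.2% higher), with Gcn2 at percentile 29.4 and PEK at percentile 9.50. All 5 members were thus below the median of CDSs of their own length, given here as a description without a test.

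**Figure D3:**
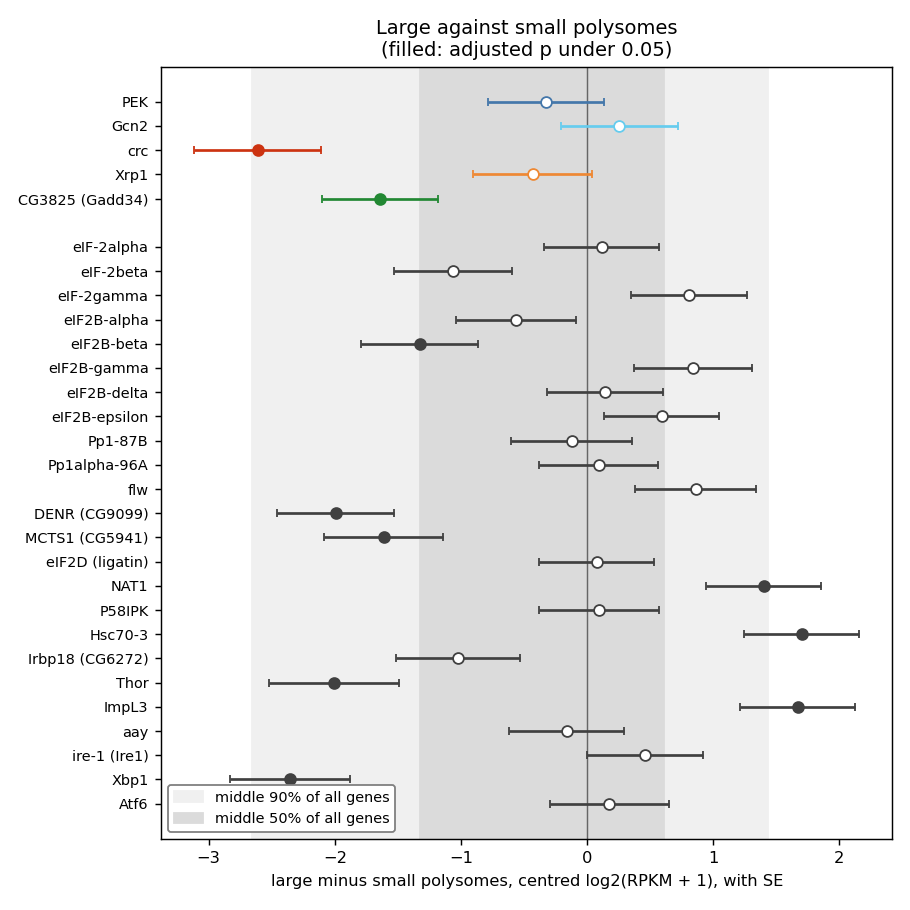
Difference between large and small polysomes in centred log2(RPKM + 1), with its SE, over the middle 90% and 50% of all longest CDSs. The 5 members are coloured. Dark points are a wider list of genes of the integrated stress response and of other branches of the unfolded protein response. Filled points have a limma adjusted p under 0.05. crc at −2.61 and CG3825 at −1.64 are the 2 filled members.

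The small polysome libraries differed most for crc among the members. Its density in the extensive library was 2.56 times that in the initial one (interval 2.41 to 2.71), and after centring the log2 difference was 1.09, at percentile 95.7 of all genes. A centred increase of at least 2-fold was seen for 5.63% of all longest CDSs, and for crc alone among the 5 members, while 2.18% were at least 2-fold lower. Not centred, the other ratios of the extensive to the initial library were 1.82 for Xrp1, 1.56 for CG3825, 1.44 for PEK and 0.834 for Gcn2. After centring, the log2 differences were 0.60, 0.38, 0.26 and −0.50 in the same order. Within the initial experiment, which holds 1 library of each fraction and so allows no test, the log2 difference between large and small polysomes was −2.07 for crc, −1.45 for CG3825, −0.20 for PEK, −0.13 for Xrp1 and 0.0040 for Gcn2. Against the extensive library alone it was −3.15 for crc and −1.83 for CG3825.

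The alternative CDSs of each gene gave the same picture, since most of their sequence is shared. The 372 aa and 298 aa forms of crc had log2 differences of −2.61 and −2.64 between large and small polysomes, and the 298 aa form starts at 21315508. The forms of PEK of 1110 and 1099 aa both had −0.35, and the form of Gcn2 of 1589 aa had +0.26. Xrp1 has a shorter form of 406 aa, which starts at 14750898 and lies within the longer CDS, with a log2 difference of −0.59 (limma adjusted p = 0.356).

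The nested forms of Xrp1 allowed a closer look. The 786 nucleotides (nt) found only in the longer CDS had 0.825 times the density of the 1221 nt shared by both in large polysomes (interval 0.750 to 0.906). The ratio was 0.526 (0.502 to 0.551) in extensive small polysomes and 0.618 (0.571 to 0.668) in initial small polysomes. In all polysomes it was 0.703 (0.654 to 0.755), against 0.695 (0.652 to 0.740) in mRNA. The interval of large polysomes lay above those of both small polysome libraries and of mRNA, and that of extensive small polysomes lay below mRNA. The intervals of the small polysome libraries did not overlap each other either, so these libraries differed by more than counting error. Relative to its 3′ part, the 5′ part of the Xrp1 CDS was more densely read in the large polysome library than in both small ones. With 1 large library, these intervals cannot show a difference between the fractions. The long and the short proteins cannot be told apart within the shared part, and among the footprints only the small polysome library was repeated.

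Of the 20 distinct member uORFs, 6 passed the cut-offs in large polysomes, where 5.6% of all distinct uORFs did. In extensive small polysomes 9 passed (13.3% of all), in initial small polysomes 6 (6.78%) and in all polysomes 8 (9.6%). At least 1 library was passed by 9 of the 20, against 18% of 14788 uORFs. All 5 genes had at least 1 such uORF. The shares of all uORFs include uORFs of genes with little or no mRNA in these cells, while all 5 members had mRNA. The 5 that passed in all 4 libraries were both uORFs of PEK, the first of crc, the second of Xrp1 and the third of CG3825, numbered from the 5′ end. The 11 that passed in none, 8 on crc and 3 on Xrp1, are listed at 0 RPKM in every library. Lengths in aa are the listed nucleotides over 3, and the table does not say whether the listed coordinates include the stop codon. If they do not, uORFs listed to 1 or 2 nt before a CDS may run into it, although the study describes a stop codon within the 5′-UTR.

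The uORFs of PEK overlap each other and are listed on 1 transcript, while reads on the CDS can come from all forms of PEK. Their ratios to the CDS thus also depend on the share of that transcript, which was not measured. uORF 1 (23 aa, 1290258 to 1290326) is listed to 103 nt before the CDS and uORF 2 (54 aa, 1290157 to 1290318) to 2 nt before it. uORF 1 had 160.1 RPKM in large polysomes, 98.1 and 89.6 RPKM in extensive and initial small polysomes and 95.4 RPKM in all polysomes, from 29, 62, 34 and 21 reads. uORF 2 had 94.1 RPKM in large polysomes, 73.5 and 55.0 RPKM in small polysomes, and 103 RPKM in all polysomes, from 40, 109, 49 and 53 reads. uORF 1 was denser than the CDS in large polysomes (2.24 times, interval 1.49 to 3.25) and in initial small polysomes (1.56 times, 1.08 to 2.20). In extensive small polysomes it was at 1.19 times (0.909 to 1.53) and in all polysomes at 0.891 times (0.549 to 1.37), with intervals that include 1. Counting uORF 2, which holds most of uORF 1, the uORF density was 1.32 times the CDS density (interval 0.931 to 1.81) in large polysomes, 0.890 and 0.959 times in extensive and initial small polysomes and 0.958 times in all polysomes. All 4 intervals include 1. The medians over 2196 genes with uORFs were 0.283, 0.521, 0.264 and 0.446 in the same order, and PEK was between percentiles 68.6 and 85.3.

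The single uORF of Gcn2 (22 aa, 27221550 to 27221615, 97 nt before the CDS) passed only in extensive small polysomes, with 16.5 RPKM from 10 reads. In large, initial small and all polysomes it held 1 read each, at 5.77, 2.76 and 4.75 RPKM. Its ratio to the CDS was 1.42 (interval 0.676 to 2.63) in extensive small polysomes and 0.174 (0.0044 to 0.972) in all polysomes. These intervals are wide and overlap, and a difference between the libraries was not tested.

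For crc, uORF 1 (20 aa, 21310883 to 21310942, on 3 transcripts) lies 932 nt before the CDS in genome coordinates. That span includes an intron, since uORF 3 lies within it over 2 exons, so the distance in the spliced mRNA is shorter. uORF 1 had 95.2 RPKM in large polysomes, against 304 and 164 RPKM in extensive and initial small polysomes. In all polysomes it had 146 RPKM, and the reads were 15, 167, 54 and 28 in the same order. Like the CDS, it was densest in extensive small polysomes and least dense in large polysomes. The contrast was smaller than in the CDS: the large over extensive small ratio was 0.313 (interval 0.172 to 0.532) for uORF 1 and 0.132 (0.115 to 0.151) for the CDS, with intervals that do not overlap. Against the initial small library the ratios were 0.582 (0.305 to 1.05) and 0.337 (0.292 to 0.389), with intervals that overlap. The uORF density was 1.28 times that of the CDS (0.707 to 2.17) in large polysomes, 0.541 (0.461 to 0.631) and 0.745 (0.557 to 0.978) in extensive and initial small polysomes and 0.477 (0.316 to 0.693) in all polysomes.

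Xrp1 has a uORF of 118 aa (uORF 2, 14741178 to 14741531), which held the most reads of the member uORFs, although it lies 4822 nt before the CDS in genome coordinates. It had 99.0 RPKM in large polysomes, 247 and 114 RPKM in extensive and initial small polysomes and 209 RPKM in all polysomes, from 92, 800, 221 and 236 reads. In RPKM large polysomes were below both small polysome libraries, with a ratio of 0.872 to the initial one (interval 0.676 to 1.12). On the same scale the CDS had a ratio of 1.30 (interval 1.23 to 1.38). Ratios of RPKM between libraries are not centred here. The median log2(RPKM + 1) of the tested CDSs was 4.84 in large and 4.33 in initial small polysomes. uORF 1 of Xrp1 (17 aa, 14740793 to 14740843) had 37.3 RPKM in large polysomes, 197 and 14.3 RPKM in extensive and initial small polysomes and 135 RPKM in all polysomes. Its 92 reads in the extensive against 4 in the initial small library made a ratio of 13.8 (interval 5.21 to 51.7), compared with 1.82 for the CDS. For this uORF the small polysome libraries differed by more than counting error. Both uORFs pooled were at 0.248 times the CDS density (0.20 to 0.304) in large polysomes, 0.468 (0.437 to 0.502) and 0.358 (0.312 to 0.410) in small polysomes and 0.362 (0.318 to 0.411) in all polysomes. The interval of large polysomes lay below the other 3. Both uORFs are listed on 1 transcript, while the longest CDS is shared by 4 listed forms and holds the sequence of the shorter ones. These ratios thus also depend on the share of that transcript in the mRNA, which was not measured.

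The 3 uORFs of CG3825 follow each other without overlap, are listed to 224, 115 and 2 nt before the CDS, and code for 35, 27 and 28 aa (19864639 to 19864743, 19864530 to 19864610 and 19864417 to 19864500). uORF 1 had 25.4 RPKM in large polysomes, against 101 and 43.3 RPKM in extensive and initial small polysomes. uORF 2 had 23.5 RPKM in large polysomes, against 60.7 and 71.9 RPKM in extensive and initial small polysomes. uORF 3 had 22.7 RPKM in large polysomes, against 78.0 and 41.1 RPKM in extensive and initial small polysomes. In all 3 the large polysome value, from 5 to 7 reads, was below both small ones. All polysomes had 38.8, 85.1 and 52.2 RPKM over uORFs 1, 2 and 3. Pooled over the 3, the uORF density was 0.355 times that of the CDS (0.202 to 0.586) in large polysomes, 0.401 and 0.392 times in extensive and initial small polysomes and 0.474 times in all polysomes. These 4 intervals overlap, and a difference between the libraries in this ratio was not tested.

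**Figure D4:**
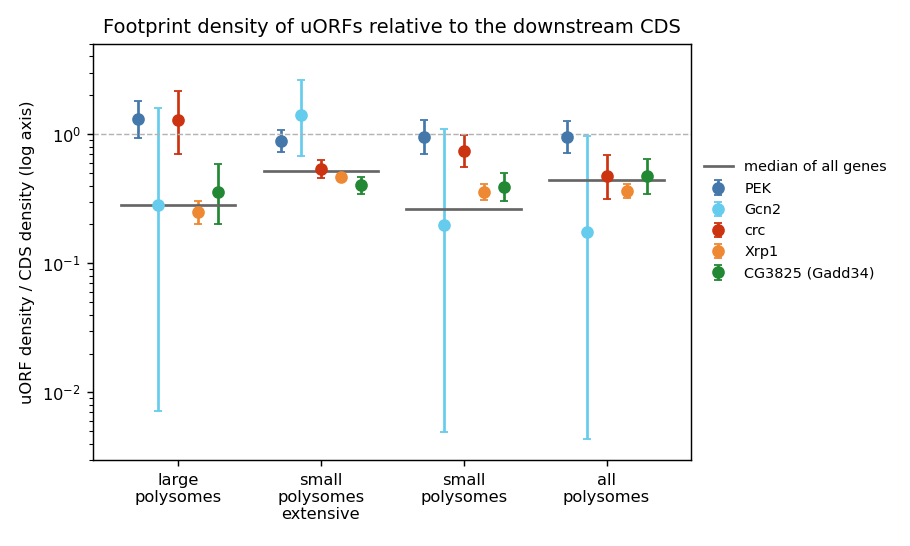
Density of each member's uORFs with reads, pooled without overlap, over the density of its longest CDS (log axis) in each footprint library, with exact 95% counting intervals and the median of 2196 genes with uORFs. PEK is shown by uORF 2 alone. The uORFs listed at 0 RPKM, 8 on crc and 3 on Xrp1, are left out. PEK is near 1 in all 4 libraries, crc is at 1.28 in large and 0.541 in extensive small polysomes, and the wide bars of Gcn2 rest on 1 read in 3 of the 4 libraries.

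The 11 uORFs listed at 0 RPKM are not all free of footprints. For 8 of them the coverage in the same table was at or over the cut-off in at least 1 library. Among these, crc uORFs 3, 6 and 7 overlap by their coordinates, as do crc uORFs 2 and 4. The same reads can thus cover more than 1 of them. Xrp1 uORF 5 (69 aa, listed to 1 nt before the CDS) had a coverage of 1 in all 4 libraries. crc uORF 3 (48 aa, 2 exons, also listed to 1 nt before the CDS) had coverage of 0.778 in large polysomes, 0.882 and 0.861 in extensive and initial small polysomes and 0.972 in all polysomes. crc uORF 7 (38 aa, listed to 1 nt before the CDS) had 0.772 in large polysomes, 0.974 and 0.825 in small polysomes and 0.965 in all polysomes. It starts at 21311760 and ends at 21311873, where uORF 3 also ends. The reading frames overlap, so their coverage comes in part from the same reads and is not separate. The zeros of these uORFs are therefore taken as listed values, with no fold or ratio, and the pooled ratios of crc and Xrp1 above leave them out. Of all distinct uORFs, 11.6% are listed at 0 RPKM with a coverage at or over the cut-off in at least 1 library, and 9.45% are at 0 in all 4 libraries with some coverage. The cause was not tested.

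**Figure D5:**
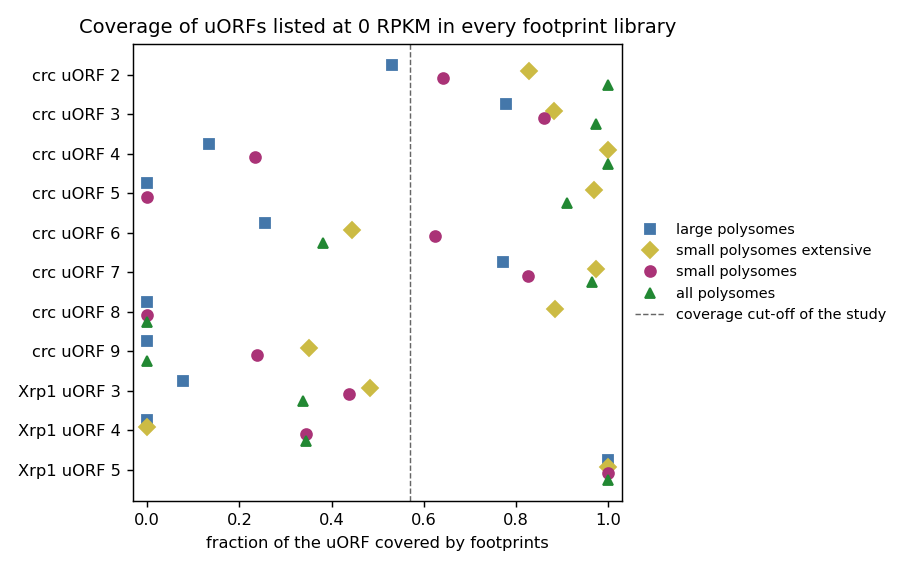
Fraction of each reading frame covered by footprints in the 4 libraries, for the 11 member uORFs listed at 0 RPKM, with the study's coverage cut-off as a dashed line. Xrp1 uORF 5 is at 1 in every library, and crc uORFs 3 and 7, which overlap each other, are past the cut-off in all 4.

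A wider list of 26 genes was set beside the members, of which 24 had values here. It held genes tied to the integrated stress response and 3 genes of other branches of the unfolded protein response, ire-1, Xbp1 and Atf6. Between large and small polysomes 3 of the 24 were higher in large polysomes and 5 lower, beside 8.1% higher and 26.1% lower over all longest CDSs, with a median log2 difference of +0.09 over the list and −0.23 over all longest CDSs. Higher in large polysomes were the endoplasmic reticulum chaperone Hsc70-3 (+1.70, limma adjusted p = 0.00923), the lactate dehydrogenase ImpL3 (+1.67, 0.0104) and NAT1 (+1.40, 0.0271), a relative of the scaffold factor eIF4G. Hsc70-3, the fly BiP, had 1440 RPKM in large polysomes, against 385 and 298 RPKM in extensive and initial small polysomes.

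Lower in large polysomes were Xbp1 (−2.36, limma adjusted p = 0.00135), the transcription factor of the Ire1 branch of the unfolded protein response, and Thor (0.249-fold in large relative to small polysomes, 0.00733), the fly 4E-BP, which binds eIF4E. Xbp1 had 536 RPKM in large polysomes, against 2934 and 1518 RPKM in extensive and initial small polysomes. The reinitiation factors DENR (listed as CG9099, −1.99, adjusted p = 0.00362) and MCTS1 (listed as CG5941, −1.61, 0.0157) were also lower, as was eIF2B-beta (−1.33, 0.0383), a subunit of the exchange factor that recharges eIF2. The 3 eIF2 subunits and the other 4 eIF2B subunits did not pass.

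In all polysomes the median TE of the list was 1.06, against 0.977 over all genes, and 3 of 24 genes were over 2 times the median and none under 0.5 times, beside 14.3% over and 16.7% under for all genes. These were Atf6 (TE 5.003), the transmembrane transcription factor of the unfolded protein response, Irbp18 (listed as CG6272, TE 3.68), a leucine zipper partner of Xrp1, and Pp1alpha-96A (TE 2.40), a catalytic subunit of protein phosphatase 1. Atf6 and Irbp18 had low mRNA densities of 1.77 and 4.49 RPKM.

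The genes whose TE profile over the 4 footprint libraries was most like that of each member were found among 5531 genes by the Euclidean distance of log2 TE. For PEK they were CG8451, CG4658 and CG1882, at distances of 0.148 to 0.235, and for Gcn2 cv-c, Alh and unc-104, at 0.161 to 0.275. For Xrp1 they were Ero1L, rho-4 and Mio, at 0.225 to 0.238, and for CG3825 CG13601, CG11802 and CG10754, at 0.126 to 0.161. The nearest to crc, CG8765, CG8520 and CG1103, were farther off, at 0.531 to 0.575. CG8765 had a TE of 0.423 in large polysomes, 2.33 and 1.45 in extensive and initial small polysomes and 1.63 in all polysomes.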

How the data were processed

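Per the study's methods, the authors trimmed reads, removed rRNA and tRNA with Bowtie, mapped uniquely with TopHat, allowing 2 mismatches, to FlyBase Release 5.50, and counted coverage with BEDTools; Bowtie and TopHat versions are not given in the sources used here. The deposited RPKM and coverage fraction values per CDS and uORF were used as given. Reads were recovered from RPKM and length. The authors called a reading frame translated at 11.8 RPKM, a coverage of 0.57 and 5 reads, and the same limits were used here. CDSs with identical coordinates were counted once, and 244 CDSs and 160 uORFs without values were left out.

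Large and small polysomes were compared with limma 3.58.1 (R 4.3.3) on log2(RPKM + 1), each library centred on its median, over CDSs with a mean of at least 1 RPKM, with Benjamini-Hochberg adjustment at 0.05. Libraries were grouped by their labels. The extensive library was taken as the second small polysome library, as the study describes. The single deposited mRNA column has a read total of 4560000, close to the sum over the replicate mRNA libraries the study describes, and is treated as their pool, without a spread. Intervals are exact Poisson or conditional binomial intervals (scipy 1.17.1) and cover counting error only. Named genes were all members, their uORFs with a pass or 10 reads in a library, list genes past the test or past a TE of 0.5 or 2 times the median in all polysomes, and the 3 genes nearest to each member with at least 20 reads in each library. Other uORFs were summarised; 3 of these were named for their coverage after their values were seen, and the length ranges were also chosen then. The members and lists were chosen with earlier results of these data known. The limma script was tested on simulated data. Alternatives were the pseudocount, the filter, the centring, the cut-offs, the scaling and leaving out each small polysome library. The table of non-coding RNA reading frames was not used.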

Additional observations from a re-analysis of the deposited data

How the results depend on the processing

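The limma comparison of large with small polysomes called 3498 CDSs (29.9% of them higher in large polysomes). Without the filter on low values it called 5409 (63.1% higher), and without centring 0, with 4446 at an unadjusted p under 0.05; the cause was not tested. Other settings called between 2499 (pseudocount 0.1 RPKM, 20.8% higher) and 3919 (pseudocount 5 RPKM). crc and CG3825 were lower in large polysomes under every setting run, and past the threshold under each except no centring, where the log2 differences were −2.23 and −1.26; elsewhere the adjusted p was between 1.45e-08 and 0.0139 for crc and between 0.000798 and 0.0389 for CG3825. The differences of PEK and Xrp1, not called, changed sign: PEK was +0.11 without the filter and +0.0550 without centring, and Xrp1 +0.0098 without the filter. Leaving out each small polysome library gave values with no test of −3.15 to −2.07 for crc, −1.83 to −1.45 for CG3825, −0.73 to −0.13 for Xrp1, −0.45 to −0.20 for PEK and 0.00 to 0.51 for Gcn2. The TE of Xrp1 in all polysomes was 1.22 when scaled to reads on the longest CDSs. The uORF to CDS ratio of CG3825 in all polysomes was 0.710 for its highest single uORF, against 0.474 pooled. With medians over genes of at least 5 RPKM in mRNA, 2 member TE values in place of 3 were past the limits, both of crc. No paired analysis was possible because the repeat experiment holds small polysomes but no large ones. A term for the experiment, which the large polysomes share with the initial small library, leaves no residual degrees of freedom. Footprints of large and of all polysomes have 1 library each, the spread between mRNA replicates is not in the deposited column, and uORF values of 1 to 7 reads limit what their ratios can show.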
